A study of Mus musculus with 4 samples.

Results

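Genes that govern how lymphocytes enter and leave lymph nodes were read from RNA sequencing of mouse T cells: the sphingosine 1-phosphate (S1P) receptors S1pr1 to S1pr5, the sphingosine kinases Sphk1 and Sphk2, the membrane protein Cd69 and the chemokine receptor Ccr7. They were chosen by symbol, and all 9 were found among the 50600 genes in the files. The 4 libraries, biological replicates 1 to 4, form 1 group with no second condition, so genes were compared with each other inside each library. All 4 libraries are from primary T cells of C57BL/6NJ mice, of unknown age and with sex not collected. The labels link a protocol on CD4+ T cell differentiation, and the file headers add the words Th0, activated, sorted and 72 h, without naming an agent. The labels call the assay total RNA-seq, while the linked library protocol is named for poly(A)+ RNA. The 4 libraries share 1 donor entry, and no label tells whether separate animals or cultures were used, so spreads and p-values measure differences between these libraries that may be technical.

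S1P is a lipid made inside cells by phosphorylation of sphingosine. It is abundant in blood and lymph and is kept low inside lymphoid tissue by the S1P lyase, and T cells that display S1pr1 follow this gradient out of the lymph node. Cd69, which appears on the surface soon after T cell receptor stimulation, binds S1pr1 and has it internalized, which holds activated cells in the node. Ccr7 acts in the other direction, since its ligands Ccl19 and Ccl21 guide naive T cells into the node across its venules. The chemokine receptor and the S1P receptors are all G protein-coupled receptors. Messenger RNA was measured here, not the amount of receptor at the cell surface.

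The libraries held 34978213, 118937382, 42274502 and 95356041 counted read pairs in replicates 1 to 4. In bulk RNA, fewer cells of a type and less RNA per cell cannot be told apart. All 10 genes of a T cell marker list reached a TPM (transcript abundance, counts divided by exonic length and scaled to 1000000 per library) of 1 in every library, with a summed level of 6540 to 6948 TPM. Markers of other cells lay far lower. For comparison, 49.9% of all protein-coding genes and 24.8% of all genes in the files reached 1 TPM in every library. Of the endothelial list 1 of 10 genes reached that level, and Cdh5, Flt1, Emcn and Lyve1 had 0 counts. Of the NK cell list 1 of 8 did, of the B cell list 2 of 8, and of the macrophage and monocyte list 1 of 7, with Lyz2 and Fcgr1 at 0 counts. For the dendritic cell list it was 1 of 6, with Itgax, Clec9a and Siglech at 0 counts, and for the stromal list 1 of 6, with Col3a1 at 0. For the erythroid and platelet list it was 1 of 7, with Hbb-bs, Alas2, Pf4 and Ppbp at 0. Their summed levels were 19.8 to 23.4 TPM for the endothelial list, nearly all of it Pecam1, which leukocytes also express, 4.90 to 7.75 for NK cells, 5.11 to 8.87 for B cells, 2.13 to 3.68 for macrophages and monocytes, 2.62 to 2.86 for dendritic cells, 3.98 to 5.12 for stromal cells and 1.78 to 2.60 for erythroid cells and platelets.

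Among the 9 genes, Ccr7 stood far above the rest, S1pr4 was the most abundant S1P receptor and Sphk2 was nearly the sole sphingosine kinase. Cd69 and S1pr1 were at intermediate levels, and S1pr5 was barely detected. Of the 9, 7 reached a TPM of 1 in every library. The same was true of 49.9% of all protein-coding genes and of 24.8% of all genes in the files. In order of mean TPM the genes ran Ccr7, S1pr4, Sphk2, Cd69, S1pr1, S1pr2, S1pr3, Sphk1 and S1pr5. No gene's range over the 4 libraries overlapped that of its neighbour in this order, and each pair of neighbours was ranked alike in 4 of 4 libraries. The closest neighbours were Sphk2 and Cd69, where the lowest library of Sphk2 lay 1.19-fold above the highest of Cd69, and S1pr4 and Sphk2, where the gap was of like size, 1.197-fold.

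**Figure D1:**
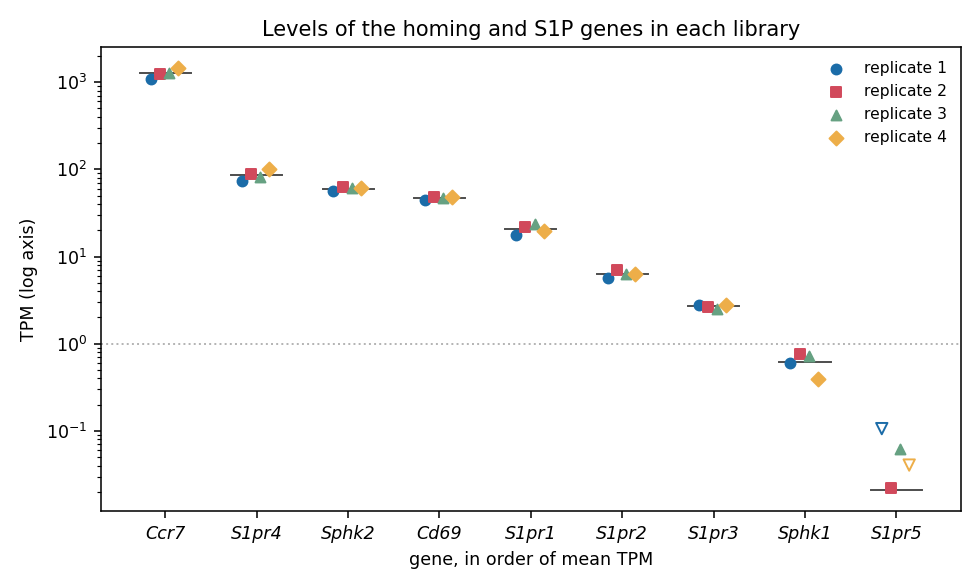
TPM on a log axis for the 9 genes in each of the 4 libraries, in order of mean TPM. Points are libraries, horizontal bars are means over the 4, the dotted line marks 1 TPM, and open triangles mark the limit that a count of 0 allows in the libraries where S1pr5 had none. The genes span from 1100 to 1435 TPM for Ccr7 down to measured values of 0 to 0.0617 TPM for S1pr5, whose highest triangle is at 0.106 TPM, in replicate 1. The points of neighbouring genes do not overlap.

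The 5 S1P receptors share a ligand and differ in the G proteins they engage and in the cells that carry them. S1pr1 (ENSMUSG00000045092.8, chromosome 3, 115710433 to 115715072, minus strand, 2 exon blocks) signals through Gi proteins and is the egress receptor of T cells. It had 17.7, 21.8, 23.3 and 19.5 TPM in replicates 1 to 4, a mean of 20.6 ± 2.48 (SD, n = 4). Replicate 3 was the highest and replicate 1 the lowest, and S1pr1 ranked 6785 of the 10868 protein-coding genes that reached 1 TPM in every library. This put it below the median of those genes, which was 31.9 TPM.

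S1pr4 (ENSMUSG00000044199.6, chromosome 10, 81497747 to 81500132, minus strand, 1 exon block), a receptor found mostly on lymphoid and other blood cells, had 74.4, 88.6, 82.5 and 100.1 TPM, a mean of 86.4 ± 10.8 (SD, n = 4). Every library of S1pr4 lay above every library of S1pr1. The difference of S1pr1 minus S1pr4 was -2.06 ± 0.22 (SD, n = 4) in log2(TPM + 0.1), a scale that understates differences of low genes, and S1pr1 was lower in 4 of 4 libraries (exact two-sided sign-flip permutation test, p = 0.13, adjusted p = 0.13 over 14 gene pairs). With 4 libraries 0.13, rounded, is the smallest p this test can give, and all 14 pairs reached it.

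S1pr2 (ENSMUSG00000043895.6, chromosome 9, 20962361 to 20976781, minus strand), which couples to Gna12 and Gna13 and restrains migration of germinal centre B cells, had 5.62, 7.09, 6.30 and 6.25 TPM. S1pr3 (ENSMUSG00000067586.3, chromosome 13, 51408618 to 51422797, plus strand), a receptor best known from vascular cells, had 2.79, 2.61, 2.53 and 2.81 TPM. Both were low, and both were seen in every library at a level that varied little, with S1pr3 resting on 141 to 426 counts. S1pr1 exceeded S1pr2 by 1.69 ± 0.12 log2 and S1pr3 by 2.89 ± 0.24 log2 (SD, n = 4), each time in all 4 (exact sign-flip p = 0.13). S1pr4 exceeded S1pr2 by 3.75 ± 0.16 log2, likewise in all 4 (exact sign-flip p = 0.13). Without division by length the excess of S1pr1 over S1pr2 was 0.31 log2, since the exons of S1pr2 add up to 7971 bases and those of S1pr1 to 3046. Of the endothelial markers, Pecam1, Tek and Prox1 had counts in every library, at means of 20.5, 0.191 and 0.267 TPM, Kdr, Tie1 and Vwf had counts in some, and the other 4 had none. The stromal and mural cell marker Pdgfrb averaged 3.22 TPM, near the level of S1pr3, and was the 1 of 6 stromal genes at 1 TPM in every library. Col1a1 averaged 1.10 TPM and every other gene of that list less, with Col3a1 at 0 counts. The part of such cells in the S1pr3 level was not tested.

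S1pr5 (ENSMUSG00000045087.8, chromosome 9, 21242912 to 21248443, minus strand), which directs the exit of NK cells from marrow and lymph nodes, had 0, 2, 2 and 0 counts in replicates 1 to 4. A count of 0 allows at most 3 counts at 95% confidence, which is 0.106 TPM in replicate 1 and 0.0406 TPM in replicate 4, while the 2 counts made 0.0220 TPM in replicate 2 and 0.0617 TPM in replicate 3. Over all libraries S1pr5 had 4 counts, with an exact Poisson 95% interval of 1.09 to 10.2, against 5705 of S1pr1. Per exonic base S1pr1 was thus 1171-fold above S1pr5, with a counting interval of 457.2 to 4296. Both intervals reflect counting error alone, as PCR copies of a molecule could not be recognised. The log2 difference of S1pr1 minus S1pr5 was 7.44 ± 0.19 (SD, n = 4), higher in 4 of 4 libraries (exact sign-flip p = 0.13), and was 4.40 with a pseudocount of 1. Tbx21 and Zeb2, transcription factors tied to S1pr5 expression in NK cells, had mean levels of 3.36 and 1.25 TPM, and Eomes, a relative of Tbx21, had 4.39 TPM.

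S1pr4 made up most of the S1P receptor message. Its share of the summed TPM of the 5 receptors was 74.0%, 73.8%, 71.9% and 77.8% in replicates 1 to 4, a mean of 74.4% ± 2.45 (SD, n = 4). The share of S1pr1 was 17.6%, 18.1%, 20.3% and 15.2%, while S1pr2 averaged 5.46% and S1pr3 2.33%. The share of S1pr4 was highest in replicate 4, the library in which the share of S1pr1 was lowest. Shares of a fixed total are bound to move against each other. In TPM both genes were lowest in replicate 1, at 74.4 for S1pr4 and 17.7 for S1pr1.

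The promoter windows of S1pr4 and S1pr5, the most and least abundant of the receptors, are shown because they also had the lowest and highest G and C content among the 4 receptors with a window. Each is the 250 bases before a RefSeq transcript start on GRCm38.p6 (mm10), read 5′ to 3′ on the minus strand, at chr10:81500138-81500387 for S1pr4 and chr9:21248444-21248693 for S1pr5, with CpG dinucleotides in capitals:
S1pr4: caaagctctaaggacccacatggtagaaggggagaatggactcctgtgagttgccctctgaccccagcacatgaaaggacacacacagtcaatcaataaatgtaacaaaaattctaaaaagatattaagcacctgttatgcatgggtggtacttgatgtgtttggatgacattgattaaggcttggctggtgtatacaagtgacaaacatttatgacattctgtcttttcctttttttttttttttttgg
S1pr5: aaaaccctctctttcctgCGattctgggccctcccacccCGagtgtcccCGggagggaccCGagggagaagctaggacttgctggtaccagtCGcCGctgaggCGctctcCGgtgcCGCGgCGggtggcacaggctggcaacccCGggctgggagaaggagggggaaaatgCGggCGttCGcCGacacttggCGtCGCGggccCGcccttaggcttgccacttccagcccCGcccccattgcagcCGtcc
The S1pr4 window held 0 CpG dinucleotides and 38.8% G and C, and the S1pr5 window held 22 and 69.2%. Over 32817 such windows of all genes the medians were 6 CpG dinucleotides and 52.4%. The window of the low S1pr2 held 14 CpG dinucleotides and that of the low S1pr3 held 9, so among these 4 receptors S1pr4 alone had no CpG in its window. RefSeq windows were matched for 6 of the 9 genes, and S1pr1, Cd69 and Ccr7 had none in the table used.

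Motifs were searched on both strands of these windows as plain letters. CACCC, the core bound by KLF factors, occurred at 1 place in the S1pr4 window and at 2 places in the S1pr5 window, and 52% of all windows held it. GTAAACA, a forkhead motif, and TCACACC, a T-box motif, were in neither and in 3.16% and 3.33% of all windows. TGACTCA, the AP-1 motif, was also in neither and was in 4.46% of all windows. Such matches describe letters in the window and do not show binding.

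Sphk1 and Sphk2 make S1P. Sphk1 (ENSMUSG00000061878.15, chromosome 11, 116530925 to 116536674, plus strand), the mainly cytosolic enzyme that moves to the plasma membrane on stimulation, had 0.594, 0.753, 0.727 and 0.390 TPM from 32, 131, 45 and 55 counts. Sphk2 (ENSMUSG00000057342.15, chromosome 7, 45709467 to 45718002, minus strand), found also in the nucleus and mitochondria, had 56.8, 62.2, 60.6 and 60.5 TPM, a mean of 60.0 ± 2.29 (SD, n = 4). Sphk2 made up 99.0% ± 0.260 of the summed TPM of both kinases. The log2 difference of Sphk1 minus Sphk2 was -6.42 ± 0.36 (SD, n = 4), and Sphk1 was lower in 4 of 4 libraries (exact sign-flip p = 0.13). On the opposite strand Sphk2 shares 912 exonic bases with Dbp and Rpl18. The deposited counts were made by strand, but the share of reads assigned to the wrong strand was not tested. No gene's exons overlapped those of any of the 9 on the same strand.

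Cd69 (ENSMUSG00000030156.5, chromosome 6, 129267325 to 129275436, minus strand, 4 exon blocks) had 44.6, 47.6, 47.3 and 47.5 TPM in replicates 1 to 4, a mean of 46.8 ± 1.46 (SD, n = 4). Replicate 1 was the lowest, and the other 3 libraries lay between 47.3 and 47.6 TPM. Set against its target, S1pr1 minus Cd69 was -1.19 ± 0.14 log2 (SD, n = 4), with S1pr1 lower in 4 of 4 libraries (exact sign-flip p = 0.13).

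The level of Cd69, more than that of the other 8 genes, depended on the length used. The deposited length of 6509 bases covers the exons of every annotated transcript, and these include transcripts that retain an intron, while the longest protein-coding transcript of Cd69 in GENCODE M21 has 1687 bases. The ratio of both lengths was 3.86 for Cd69, 1.80 for Sphk1, 1.25 for S1pr2, 1.17 for Sphk2 and close to 1 for the other 5. An alternative added after the data were seen used the length of the longest coding transcript. Genes without a coding transcript kept their exonic length. With this alternative Cd69 averaged 132 ± 3.64 TPM (SD, n = 4) and passed S1pr4, at 63.0 ± 7.56, and Sphk2, at 51.3 ± 1.79, in 4 of 4 libraries. The difference of S1pr1 minus Cd69 was then -3.13 log2. Which transcripts of Cd69 the reads came from cannot be told from counts per gene, so its place relative to S1pr4 and Sphk2 in the order is uncertain.

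**Figure D2:**
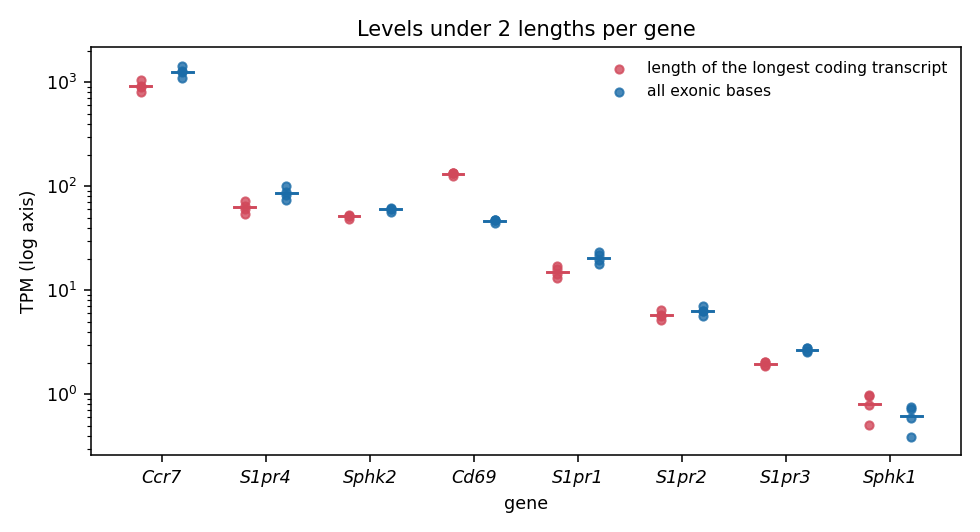
TPM on a log axis for 8 genes under 2 lengths, the longest protein-coding transcript of GENCODE M21 (red) and all exonic bases of the deposited files (blue). Points are the 4 libraries and bars their means. Cd69 averaged 132 TPM with the coding transcript, above S1pr4 at 63.0, and 46.8 TPM with all exonic bases, below S1pr4 at 86.4.

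Ccr7 (ENSMUSG00000037944.8, chromosome 11, 99144196 to 99155077, minus strand, 3 exon blocks) had 1100, 1244, 1269 and 1435 TPM, from 24556, 89622, 32533 and 83809 counts. It ranked 68 of the 10868 protein-coding genes that reached 1 TPM in every library, within the top 0.626%. The difference of Ccr7 minus S1pr1 was 5.93 ± 0.19 log2, and that of Ccr7 minus Cd69 was 4.75 ± 0.12 log2 (SD, n = 4), each positive in 4 of 4 libraries (exact sign-flip p = 0.13). With the length of the longest coding transcript the second was 2.80 log2.

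Genes of adhesion on the path into lymph nodes were expressed throughout. All 18 genes of the adhesion list reached 1 TPM in every library, against 49.9% of protein-coding genes, and the list's median was 99.0 TPM against 1.43 over protein-coding genes. Fermt3, which activates integrins, led with 501.2 ± 42.8 TPM, followed by Itgal, the alpha chain of the integrin LFA-1, at 445.5 ± 26.2, and Rap1b, a GTPase of integrin activation, at 399.2 ± 4.11 (SD, n = 4).

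The ligands of Ccr7 were not detected. Ccl19, Ccl21a and Ccl21b had 0 counts in every library, as did the scavenging receptors Ackr3 and Ackr4, and Ackr2 was at 0.0541 TPM in replicate 4 and at 0 counts in the others. Ccl21c was not matched by symbol. A count of 0 allows at most 0.0252 CPM (counts per 1000000) in the deepest library. The Ccl21 copies are nearly identical, and the file headers do not name how reads that map to several places were treated, so the zeros of Ccl21a and Ccl21b are uncertain.

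Other chemoattractant receptors spanned a wide range of levels. Of 19 listed, 8 reached 1 TPM in every library (42.1%, against 49.9% of protein-coding genes), and the median was 0.159 TPM. Ccr6, a receptor for Ccl20, led with 438.3 ± 34.7 TPM, followed by Ccr4, a receptor of skin-homing and Th2 cells, at 160.8 ± 8.86, and Ccr8 at 150.0 ± 18.3 (SD, n = 4). Every library of Ccr7 lay above every library of Ccr6. Cxcr4, the receptor for Cxcl12, had 4.26, 9.12, 7.89 and 7.10 TPM, and Cxcr5, which guides cells into follicles, had 3.35, 2.16, 2.80 and 2.45. Ccr7 exceeded Cxcr4 by 7.50 ± 0.39 log2 and Cxcr5 by 8.83 ± 0.38 log2 (SD, n = 4), each in 4 of 4 libraries (exact sign-flip p = 0.13).

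Transcription factors that act on these genes were mostly expressed. Of 13 listed, 11 reached 1 TPM in every library (84.6%, against 49.9% of protein-coding genes), with a median of 12.4 TPM, led by Stat3 at 145.5 ± 11.5 TPM, Gfi1 at 111.2 ± 4.23 and Foxp1 at 62.9 ± 3.84 (SD, n = 4). Klf2, which drives transcription of S1pr1 in resting T cells, had 9.30, 10.6, 9.48 and 7.46 TPM, below S1pr1 in each library. Klf2 minus S1pr1 was -1.16 ± 0.21 log2 (SD, n = 4), lower in 4 of 4 libraries (exact sign-flip p = 0.13). Prdm1 and Zfp683, both under 1 TPM in every library, are repressors of S1pr1 and Klf2 in tissue-resident cells.

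Genes that supply sphingosine or remove S1P were detected in part. Of 23 genes for sphingosine supply, 16 reached 1 TPM in every library (69.6%, against 49.9% of protein-coding genes), with a median of 6.78 TPM, and Sptlc3, Sptssb and Cers1 had 0 counts. The list was led by the ceramide synthase Cers2 at 149.6 ± 2.48 TPM, Sptssa, a subunit of serine palmitoyltransferase, at 104.7 ± 9.19, and Sptlc1, another subunit of that enzyme, at 94.6 ± 3.41 (SD, n = 4). Of 10 genes for S1P breakdown, export and carriage, 6 did, a share of 60.0% near that of all protein-coding genes, with a median of 11.4 TPM and with Sgpp2 at 0 counts. The lipid phosphatases Plpp1 at 37.5 ± 4.74 TPM and Plpp2 at 30.9 ± 2.18, the S1P phosphatase Sgpp1 at 31.6 ± 2.81 and the S1P lyase Sgpl1 at 30.9 ± 1.78 were close to each other. Sgpl1 minus Sphk1 was 5.47 ± 0.41 log2 (SD, n = 4), positive in 4 of 4 libraries (exact sign-flip p = 0.13). Spns2, an exporter of S1P from endothelial cells, was at 0 counts in replicates 1 to 3 and at 0.232 TPM in replicate 4, and Mfsd2b, the exporter of red cells and platelets, was at 1.17 to 2.49 TPM.

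The machinery beneath these receptors was abundant. Of 23 genes for receptor signalling and desensitization, 21 reached 1 TPM in every library (91.3%, against 49.9% of protein-coding genes), with a median of 101.6 TPM. Coro1a, an actin regulator needed for T cell egress, led with 1333 ± 117 TPM, followed by the GTPase Rac2 at 706.0 ± 47.5 and Gnai2, the Gi subunit that serves both Ccr7 and S1pr1, at 486.3 ± 20.1 (SD, n = 4).

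**Figure D3:**
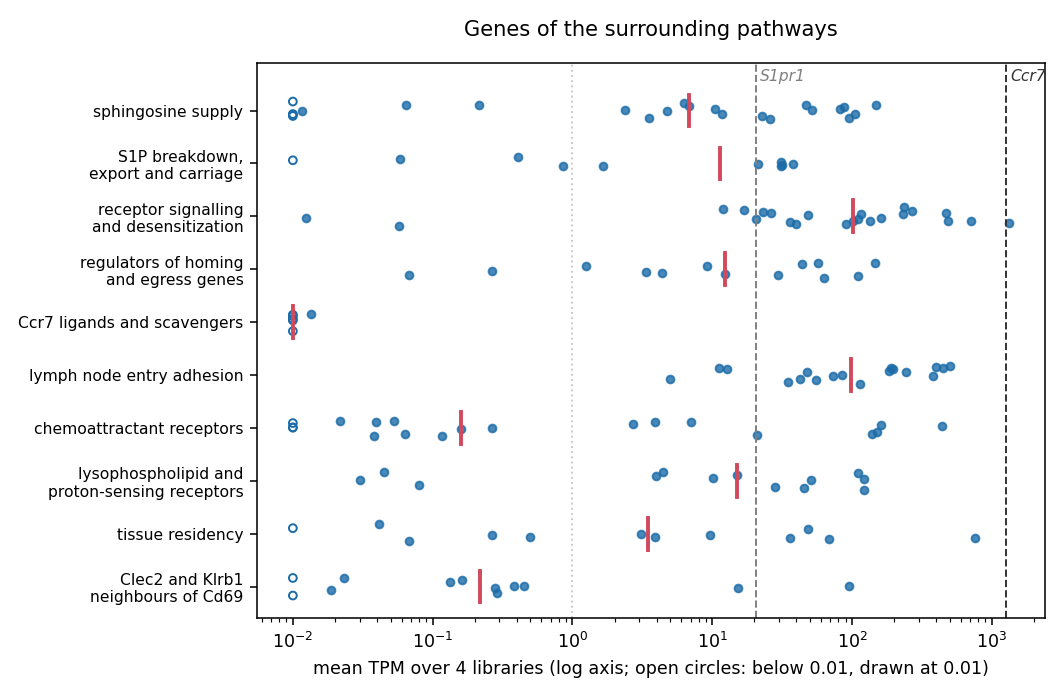
Mean TPM over 4 libraries, on a log axis, for the genes of 10 pathway lists. Each point is a gene, red bars are list medians, open circles are genes below 0.01 TPM drawn at 0.01, and dashed lines mark S1pr1 and Ccr7. All 18 adhesion genes lie above 1 TPM (dotted line), the Ccr7 ligands lie at or near 0, and Coro1a is the gene to the right of the Ccr7 line.

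A comparison between the 4 libraries asked whether any of these genes varied more between them than genes of its level usually do. A goodness of fit test in edgeR, with dispersions from the trend, covered 14269 genes and called 66 of them (0.463% called, Benjamini-Hochberg adjusted p under 0.05). Of the 9 homing and egress genes, 8 passed the filter on low counts, S1pr5 did not, and 0 of the 8 were called. Under a common dispersion 0 were called too, with Sphk1 lowest at an edgeR adjusted p of 0.227. Under the trend S1pr4 alone had an unadjusted p under 0.05, at 0.0385, with an edgeR adjusted p of 0.804, and 812 of the 14269 genes tested lay under 0.05 unadjusted. A gene that was not called is not thereby shown to be stable. The ratio of the highest to the lowest library, in CPM scaled with TMM, had a median of 1.21 over the 8 genes and 1.2045 over all genes tested.

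The genes differed among themselves in this spread. In CPM scaled with TMM, Cd69 had 94.5, 95.1, 93.6 and 96.0 in replicates 1 to 4, a ratio of 1.03, and Sphk2 likewise had a ratio of 1.03. Ccr7 had 708.4, 754.1, 763.3 and 880.6, a ratio of 1.24, and S1pr4 had 57.8, 64.8, 59.9 and 74.1, a ratio of 1.28, so both were highest in replicate 4 and lowest in replicate 1. S1pr1 had 17.5, 20.3, 21.6 and 18.5, a ratio of 1.23, with replicate 3 highest. Sphk1, the tested gene with fewest counts, had 0.923, 1.10, 1.06 and 0.578, a ratio of 1.91. Of the 8 genes, 4 were lowest in replicate 1, against 31.9% of all genes tested. That library was the highest for 1 of the 8, against 29.7% of all genes tested. Replicate 1 was also the library with fewest counts, and the part of depth in this was not tested.

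**Figure D4:**
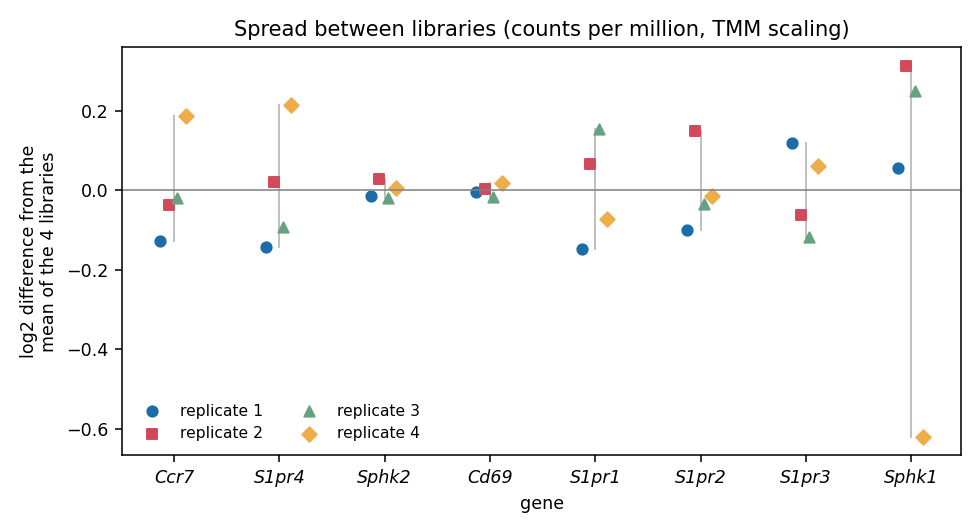
Difference of each library from the mean of the 4, in log2 of CPM scaled with TMM, for the 8 genes that passed the filter on low counts. Points are libraries and grey lines span lowest to highest. Cd69 and Sphk2 lie within a ratio of 1.03, Ccr7 and S1pr4 are highest in replicate 4, and Sphk1 spreads widest, with a ratio of 1.91.

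Of 144 genes in the pathway lists, 99 were tested and 0 were called by edgeR, while 3 had an unadjusted p under 0.05. For comparison, over all 14269 genes tested 66 were called (0.463%) and 812 lay under 0.05 unadjusted. Of 62 genes in the cell marker lists, 27 were tested, 0 were called by edgeR and 0 had an unadjusted p under 0.05. Over all lists the smallest unadjusted p was that of Clec2d, a pathway-list lectin gene of the Cd69 neighbourhood on chromosome 6. Clec2d had 107.9, 78.8, 101.0 and 90.0 TPM (edgeR goodness of fit, unadjusted p = 0.00574, adjusted p = 0.363).

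Last, the genes with the most similar level in every library were sought among 21763 protein-coding genes, by the largest difference in log2(TPM + 0.1) over the 4 libraries. For S1pr1 these were Wwp1, within 0.029 log2, Zfp292, within 0.041, and Bclaf3, within 0.064. For S1pr4 they were Card19, within 0.087, Tes, within 0.091, and Ppp1r35, within 0.10. For Cd69 they were Ecpas, within 0.028, Scnm1, within 0.035, and Ncapd3, within 0.041. For Ccr7 they were Junb, within 0.089, Eno1, within 0.11, and Coro1a, within 0.13. Likeness over 4 libraries is a description of level and pattern.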

How the data were processed

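RNA was sequenced in 4 libraries of mouse T cells. The authors deposited unnormalized counts of read pairs for each gene, made per the file headers with featureCounts 1.4.6-p4 on exons of GENCODE M13 (mm10), requiring both ends mapped and reverse strand. The header names of the alignments contain the word star; how multiply mapped reads were treated is not stated there. Symbols came from GENCODE M21, which matched 50376 of 50600 identifiers. TPM was computed here from counts and the deposited exonic length.

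Gene pairs were compared inside each library with an exact sign-flip permutation test on log2(TPM + 0.1). Variability was tested with edgeR 4.0.16 in R 4.3.3 (filterByExpr, TMM, intercept only, goodness of fit under trended dispersion, Benjamini-Hochberg adjustment at 0.05), after a test on simulated data. No pair of libraries agreed within sampling noise (chi-square per degree of freedom 28.8 to 83.7). Members, lists and pairs were chosen with earlier results of these data known. Named genes were the 9 members, genes of the 14 pairs, the 3 most abundant of each list, edgeR calls and the 3 likest genes; Zeb2, Tbx21, Eomes, Prdm1, Zfp683, Spns2, Mfsd2b, Tek, Kdr, Tie1, Vwf, Gpr174, P2ry10, Itgae, Prox1 and genes at 0 counts were named after their values were seen. Some items that this rule names are not reported here. Alternatives were a pseudocount of 1, CPM, TMM-scaled TPM, DESeq2 1.42.0 size factors, no filter, a common dispersion, other TPM thresholds, each replicate left out and, added later, coding transcript length.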

Additional observations from a re-analysis of the deposited data

Results flagged for a closer look

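Of 87 values looked at, 6 had 1 library far from the other 3 relative to the whole range. A rate of 1 in 20, or 4.35, would hold for independent and normally distributed values. Many of the 87 share genes and some rest on few counts, so setting 6 against 4.35 is not a test. Cd69 was at 44.6 TPM in replicate 1, against 47.3 to 47.6 in the others, and in CPM scaled with TMM its libraries differed by a ratio of 1.03. The log2 difference of S1pr1 minus S1pr2 was 1.87 in replicate 3, against 1.61 to 1.64. The share of S1pr3 in the summed TPM of the S1P receptors was 2.77% in replicate 1, against 2.17% to 2.20%. Trac, which encodes part of the T cell receptor, was at 1755 TPM in replicate 1, against 1926 to 1949. In CPM scaled with TMM the libraries of Trac differed by a ratio of 1.06. The lymphatic endothelial factor Prox1 was at 0.444 TPM in replicate 1, against 0.202 to 0.216. Ackr2 was at 0.0541 TPM in replicate 4 and at 0 in the others. No explanation was tested for these values.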

How the results depend on the processing

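All 14 gene pairs kept the direction of their mean under a pseudocount of 1, CPM, the coding transcript length and with each replicate left out. In CPM, with no division by length, S1pr1 minus Cd69 was -2.28 log2, Ccr7 minus Cd69 3.03, S1pr4 minus S1pr2 2.02 and Klf2 minus S1pr1 -1.87. The p of such a test cannot pass 0.05 at this size, so this says nothing about significance. With the length of the longest coding transcript, chosen after seeing the data, the mean TPM was 15.0 for S1pr1, 1.97 for S1pr3, 63.0 for S1pr4, 0.808 for Sphk1, 51.3 for Sphk2, 132 for Cd69 and 920.4 for Ccr7, since a change of length in some genes rescales all. Mean levels with a replicate left out ranged from 1204 to 1316 TPM for Ccr7, from 81.8 to 90.4 for S1pr4, from 19.7 to 21.6 for S1pr1 and from 46.5 to 47.5 for Cd69. Of all genes tested, 66 varied more than the trend, 955 under a common dispersion and 41 to 68 with a replicate left out, 41 being without replicate 1 (the cause was not tested). None of the 8 tested homing and egress genes was called under any of these settings, DESeq2 size factors and no filter included. No paired analysis was possible because there is 1 group. Depth limits S1pr5 and Sphk1, which rest on 4 and 263 counts in all.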

Other observations

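Most of the listed receptors for other lysophospholipids or protons were also expressed. Of these 13 receptors, 10 reached 1 TPM in every library (76.9%, against 49.9% of protein-coding genes), with a median of 15.0 TPM against 1.43 over protein-coding genes. Gpr132 averaged 121.9 ± 10.3 TPM and Gpr65, a proton sensor, 111.2 ± 11.0 (SD, n = 4), both above S1pr4 in mean level. The lysophosphatidylserine receptors Gpr174 and P2ry10, named after their values were seen, stood at 51.0 ± 3.34 and 45.6 ± 5.29 TPM (SD, n = 4).

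Of 12 genes of tissue residency, a state in which Cd69 is displayed for long, 7 reached 1 TPM in every library, a share of 58.3% near the 49.9% of all protein-coding genes, led by Bhlhe40 at 752.9 ± 41.4 TPM, Runx3 at 68.5 ± 4.86 and Rgs1 at 48.2 ± 2.30 (SD, n = 4). Itga1 had 0 counts in every library, and Itgae, the integrin chain CD103, was at 0.406 to 0.599 TPM. Of 12 genes of the Clec2 and Klrb1 lectin families, chosen by symbol, 2 reached 1 TPM in every library (16.7%, against 49.9% of protein-coding genes). These were Clec2d at 94.4 ± 12.7 TPM and Clec2i at 15.2 ± 1.70 (SD, n = 4).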
